A study of Mus musculus with 4 samples.

Results

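The 10 genes described here code for antioxidant enzymes and their partners: Gpx1, Gpx3, Gpx4, Sod1, Sod2, Cat, Prdx1, Txn1, Txnrd1 and Hmox1. They were chosen by symbol, as 10 of the 32285 genes in the files, because their transcripts had been seen to be low in beta cells. Their levels in beta cells against other cells are therefore a description, with no test. The transcripts of single islet cells were counted by droplet sequencing, after collagenase digestion and picking of islets by hand, in a study of what becomes of islet cells long after CCR2-expressing myeloid cells are depleted early in life. CCR2-DTR+/- mice (CCR2-DTR below) carry a transgene for the diphtheria toxin receptor. There was 1 library of each genotype at each age: CCR2-DTR mice of 6 months and of 1 month, and WT mice of 6 months and of 1 month. All mice were females on the C57b6/J background, and WT littermates received the toxin too, with 4 injections at intervals of 48 hours from postnatal day 2. Weaning at day 21 was followed by regular chow. Each library held 300 islets pooled from 2 to 3 animals, so animals cannot be told apart and no difference between libraries has a test or a replicate check.

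Cells make superoxide and hydrogen peroxide as by-products of respiration and of protein folding. Superoxide dismutases turn superoxide into hydrogen peroxide, which catalase, glutathione peroxidases and peroxiredoxins break down. Thioredoxin passes electrons to peroxiredoxins and is itself reduced by thioredoxin reductase with NADPH, while haem oxygenase degrades haem. Pancreatic beta cells of rodents are known for low levels of catalase and of glutathione peroxidase, and are often described as easily damaged by peroxide.

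Of the 10 genes, 4 code for selenoproteins, in which an internal TGA codon is read as selenocysteine at the active site. In the annotated coding sequences (GENCODE vM21, GRCm38), 29 of 21501 genes with a complete coding sequence, 0.135%, had an internal TGA codon in frame. Whether each of the 29 genes codes for a selenoprotein was not checked. The codon, in capitals below with the coding bases around it, is the feature that ties these 4 enzymes to the selenium supply, and it is shown for that reason. It was codon 47 of 201 in Gpx1, codon 73 of 226 in Gpx3, codon 129 of 253 in the longest annotated form of Gpx4 and codon 612 of 613 in Txnrd1, where 1 codon stands between it and the stop codon.
Gpx1: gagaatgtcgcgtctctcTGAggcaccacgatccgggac
Gpx3: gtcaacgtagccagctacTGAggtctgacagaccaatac
Gpx4: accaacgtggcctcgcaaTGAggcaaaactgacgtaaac
Txnrd1: atcctccagtctggctgcTGAggttaa
Of the 39 bases shown for each peroxidase, 19 were identical between Gpx1 and Gpx3, 21 between Gpx1 and Gpx4, and 23 between Gpx3 and Gpx4.

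After filtering, 25220 of 35079 barcodes remained, 3633 to 8736 a library, and 62 barcodes occurred in more than 1 library. Classes were named from marker RNA alone and should be read as beta-like, alpha-like and so on. They held 9113 beta, 6884 alpha, 2046 delta, 1969 endothelial and 559 macrophage cells, and the macrophage class rested on 95 to 163 cells a library. All 10 beta markers and all 8 alpha markers passed a level of 20 CPM in their own class, where CPM is a gene's UMIs scaled to a common total for every class and library, as did all 10 macrophage markers, 9 of 10 endothelial markers and 5 of 7 delta markers. The leading genes of the macrophage cluster also included Cd74 and H2-Aa, genes of antigen presentation. At clustering resolution 2, in place of 1, only 371 cells were named macrophage. Another 188 cells, also led by Cd74 and H2-Aa, formed an unnamed cluster that scored highest for neutrophil markers. The macrophage class may thus hold other myeloid cells. RNA of other classes was present throughout: the summed beta markers reached 42872 to 78897 CPM in endothelial cells and 48904 to 121342 CPM in macrophages. The share of barcodes over 15% mitochondrial UMIs was higher in the CCR2-DTR libraries, 23.9% against 12.2% in WT at 6 months and 18.4% against 9.37% in WT at 1 month.

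Gpx1 codes for the cytosolic glutathione peroxidase that reduces hydrogen peroxide (chr9:108338903-108340343, plus strand). In beta cells it had 44.6 and 55.1 CPM in CCR2-DTR mice at 6 months and 1 month, and 46.1 and 54.3 CPM in WT mice at the same ages. Macrophages had 893 and 749.6 CPM in CCR2-DTR mice and 779.7 and 851 CPM in WT mice, the highest Gpx1 of the 5 classes. No library of one class overlapped the range of the next: beta cells were lowest, then alpha cells at 57.4 to 61.7 CPM, delta cells at 156 to 180.5 CPM, endothelial cells at 200.5 to 242 CPM, and macrophages. The log2 ratio of beta cells over macrophages was -4.03 ± 0.23 (SD, n = 4 libraries). Here and below the 4 libraries differ in genotype and age, so such an SD is not a spread between replicates. Endothelial cells held 23.9% to 32.2% of the macrophage level of Gpx1, against 0.062% to 0.147% of that of the macrophage genes C1qa, C1qb and C1qc.

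Gpx3 codes for the secreted glutathione peroxidase of plasma (chr11:54902453-54910377, plus strand). It had 48.2 and 93.4 CPM in beta cells of CCR2-DTR mice at 6 months and 1 month, and 52.6 and 64.3 CPM in WT mice. In alpha cells it had 1273 and 1211 CPM in CCR2-DTR mice, and 1178 and 1461 CPM in WT mice. Alpha cells were thus far above beta cells in every library, by a mean of 20.4-fold, with a log2 ratio of beta over alpha of -4.35 ± 0.45 (SD, n = 4 libraries). Delta cells lay between them at 451 to 650.2 CPM, and the ranges of beta, endothelial and macrophage cells overlapped at 14.4 to 208 CPM. In beta cells Gpx3 was at 3.78% to 7.71% of the alpha level, while Gcg, the glucagon gene of alpha cells, was at 0.523% to 1.18% of its alpha level. In endothelial cells the same shares were 1.22% to 6.72% for Gpx3 and 0.721% to 4.22% for Gcg, so that Gpx3 there lay close to what Gcg showed.

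Gpx4 codes for the phospholipid hydroperoxide glutathione peroxidase, which protects membranes from lipid peroxidation (chr10:80047166-80056439, plus strand). Its beta levels were 131 and 148 CPM in CCR2-DTR mice at 6 months and 1 month, and 137 and 118 CPM in WT mice. Endothelial cells had 440 and 417 CPM in CCR2-DTR mice and 454 and 404 CPM in WT mice, the highest range of the 5 classes. Beta cells were the lowest class without overlap, below alpha cells at 162 to 189 CPM, and the ranges of delta and macrophage cells overlapped at 191 to 231 CPM.

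**Figure D1:**
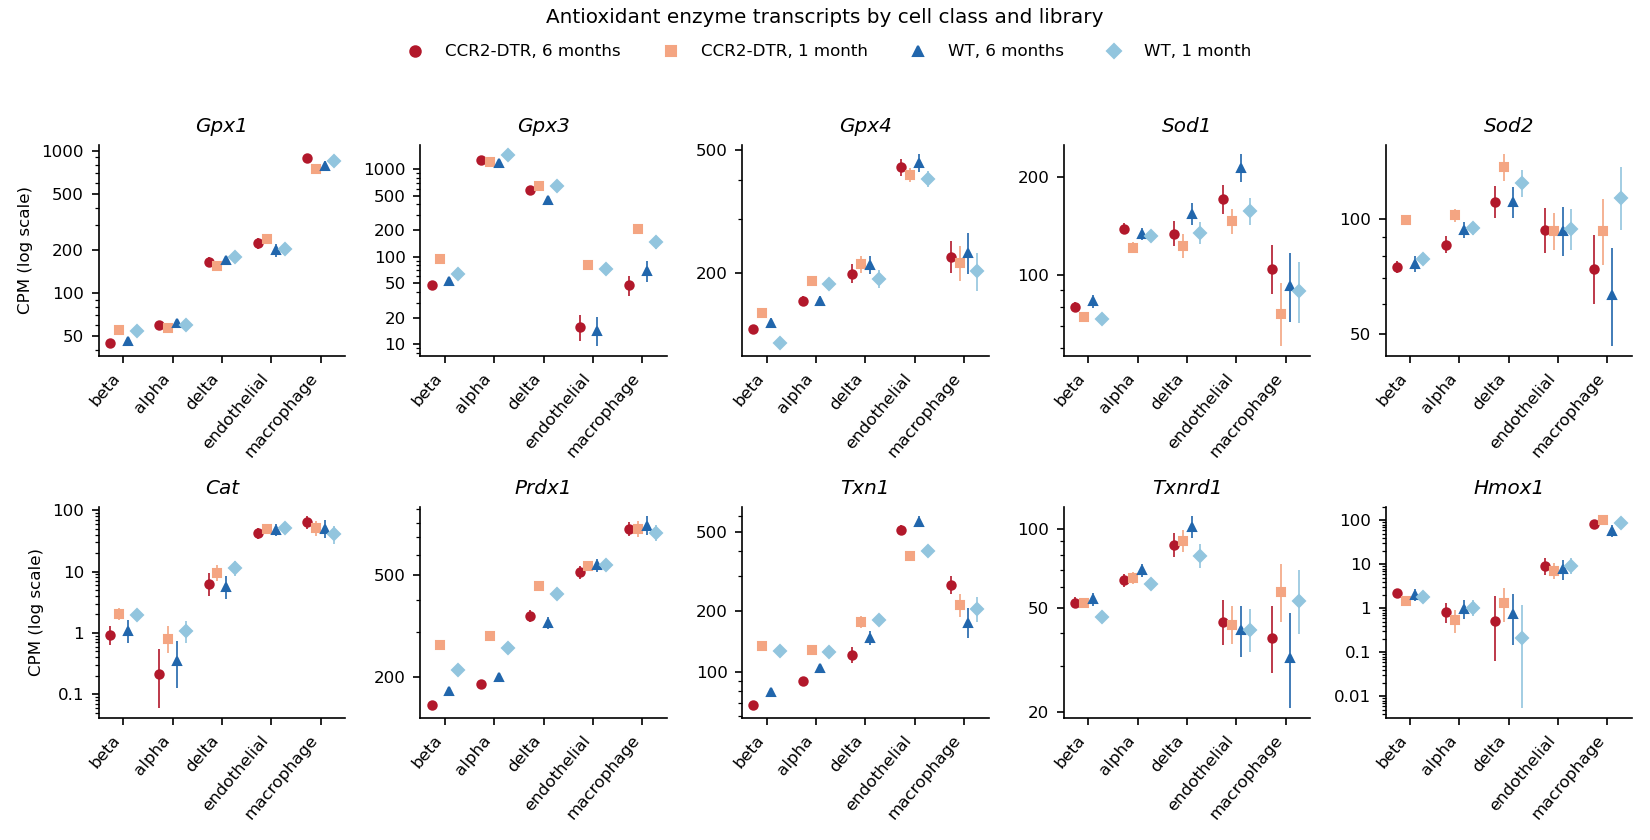
Level of each gene by cell class and library, in CPM of the UMIs summed per class on a log axis that differs between panels; points are libraries and bars are exact 95% Poisson intervals of the counts. Gpx1, Gpx4, Sod1, Sod2, Prdx1 and Txn1 have their lowest mean level in beta cells, Gpx3 is highest in alpha cells at 1178 to 1461 CPM, and Cat and Hmox1 are near 0 in beta and alpha cells.

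Sod1 codes for the copper and zinc superoxide dismutase of the cytosol (chr16:90220754-90226329, plus strand). It had 80.0 and 74.7 CPM in beta cells of CCR2-DTR mice at 6 months and 1 month, and 83.3 and 73.7 CPM in WT mice. Macrophages overlapped that range at 76.3 to 105 CPM, and alpha, delta and endothelial cells were above it at 121.5 to 213 CPM. Sod2, the manganese dismutase of mitochondria (chr17:13006846-13040063, plus strand), varied least between classes. It had 74.9 and 99.8 CPM in beta cells of CCR2-DTR mice and 76.2 and 78.4 CPM in WT mice, within the 63.2 to 114 CPM of macrophages and overlapping endothelial and alpha cells. Delta cells were above alpha cells, the class next to them in order of the mean, with 111 and 137 CPM in CCR2-DTR mice and 111 and 125 CPM in WT mice. Sod1 overlaps Scaf4 on the other strand, and whether the counting used strand is not given in the sources used here.

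Cat codes for catalase, the haem enzyme of peroxisomes that splits hydrogen peroxide (chr2:103453849-103485160, minus strand). Beta cells had 0.924 and 2.04 CPM in CCR2-DTR mice at 6 months and 1 month, and 1.08 and 1.96 CPM in WT mice, from 23 to 132 UMIs a library. Alpha cells were as low or lower, with 0.218 and 0.807 CPM in CCR2-DTR mice and 0.344 and 1.07 CPM in WT mice, so a low Cat level was not a property of beta cells alone. Delta cells had 5.57 to 11.4 CPM, endothelial cells 42.4 to 51.7 CPM and macrophages 40.0 to 63.1 CPM. The log2 ratio of beta cells over endothelial cells was -5.07 ± 0.49, and over macrophages -5.15 ± 0.81 (SD, n = 4 libraries each). Cat passed the minimum level in these comparisons only through the class in which it is high, so that it could not but differ there.

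Prdx1 codes for a cytosolic peroxiredoxin that reduces peroxide with electrons from thioredoxin (chr4:116685544-116700822, plus strand). Its beta levels were 155 and 267 CPM in CCR2-DTR mice at 6 months and 1 month, and 177 and 213 CPM in WT mice. Alpha cells overlapped them at 187 to 289 CPM, delta cells had 325 to 451 CPM, endothelial cells 511 to 546.5 CPM and macrophages 729 to 778 CPM. Prdx1 thus followed nearly the order of classes seen for Gpx1, and over the 20 class and library profiles the 2 genes had a Pearson r of 0.94 on the log2(CPM + 10) scale. The profiles share libraries and depth, and the r is given without a test.

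Txn1 codes for the cytosolic thioredoxin (chr4:57943373-57956411, minus strand). It had 68.2 and 134 CPM in beta cells of CCR2-DTR mice at 6 months and 1 month, and 78.7 and 127 CPM in WT mice. Endothelial cells had 510.0 and 380.2 CPM in CCR2-DTR mice and 564 and 404 CPM in WT mice. Beta, alpha and delta cells overlapped in pairs, macrophages overlapped delta cells at 176 to 272 CPM, and endothelial cells stood apart at the top. Txnrd1, the cytosolic thioredoxin reductase (chr10:82833951-82897712, plus strand), had another order. It had 52.5 and 52.1 CPM in beta cells of CCR2-DTR mice and 53.9 and 46.1 CPM in WT mice, which lay above endothelial cells at 41.0 to 44.1 CPM in all 4 libraries, by a log2 ratio of 0.27 ± 0.10 (SD, n = 4 libraries). Delta cells were highest at 79.2 to 102 CPM. Txnrd1 overlaps Eid3 on the same strand, so that reads of the overlap could be split between them.

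Hmox1 codes for the inducible haem oxygenase, which macrophages use to recycle haem (chr8:75093621-75100589, plus strand). It was a macrophage transcript here, with 83.8 and 101 CPM in CCR2-DTR mice at 6 months and 1 month and 57.8 and 85.2 CPM in WT mice. Beta cells had 2.27 and 1.495 CPM in CCR2-DTR mice and 2.06 and 1.79 CPM in WT mice, and endothelial cells 7.23 to 9.39 CPM. Delta cells had 1 to 6 UMIs of Hmox1 a library, too few for a level. As a share of the macrophage level, Hmox1 in beta cells was at 1.47% to 3.57%. The macrophage genes C1qa, C1qb and C1qc, summed, were at 0.239% to 0.558%. Nearly all of that sum was C1qa, with a mean of 39.1 CPM in beta cells, against 0.706 CPM for C1qb and 0.361 CPM for C1qc. Macrophages had means of 4140 CPM of C1qa, 3955 CPM of C1qb and 2622 CPM of C1qc. The summed share thus overstates that of C1qb and C1qc. Hmox1, like Cat, passed the minimum level against macrophages only through the class in which it is high.

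Set against the other genes, low levels in beta cells were common to most transcripts. Of the 8 members past the minimum level against alpha cells (a mean of 20 CPM), 7 were lower in beta cells in all 4 libraries, where 68.1% of all 5000 genes were. Against delta cells 8 of 8 were lower, with 84.5% of all genes, against endothelial cells 6 of 9, with 74.1%, and against macrophages 7 of 10, with 55.4%. The members therefore lay near the background, and read against it their count is not a result about antioxidant genes. At least 2-fold lower in all 4 libraries were 1 member against alpha cells (7.66% of all genes), 2 against delta cells (15% of all genes), 5 against endothelial cells (36.8%) and 4 against macrophages (24.2%). The median member had a log2 ratio of beta over alpha of -0.31 and the median gene -0.36. Over delta cells these medians were -0.81 and -0.69, over endothelial cells -1.43 and -0.86, and over macrophages -0.92 and -0.40.

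The scale set much of this. Hormone transcripts made up 47.4% to 53.6% of all UMIs in beta cells, 30.3% to 34.8% in alpha cells and 4.58% to 8.79% in endothelial cells, and they lower the CPM of every other gene. With the UMIs of Ins1, Ins2, Iapp, Gcg, Sst, Ppy and Pyy left out of the totals, members lower in beta cells in all 4 libraries numbered 2 against alpha cells (30.1% of all genes), 5 against delta cells (44.5%), 6 against endothelial cells (40.9%) and 4 against macrophages (27.3%). Members higher in beta cells in all 4 libraries then numbered 4 against alpha cells (49.2% of all genes) and 0 against delta cells (31.1%). Against endothelial cells 3 were higher (44.4%), and against macrophages 4 (57.7%). Gpx1, lower in beta than in alpha cells by CPM, then averaged 102 CPM in beta and 88.6 CPM in alpha cells. Counted as UMIs per cell, where beta cells are the deepest class, members lower in all 4 libraries numbered 1 against alpha cells (16.2% of all genes), 2 against delta cells (9.62%), 1 against endothelial cells (19%) and 4 against macrophages (17.1%). On that scale 4 were higher against alpha cells (53% of all genes) and 5 against delta cells (78.2%). Against endothelial cells 5 were higher (72.8%), and against macrophages 4 (70.8%). On all 3 scales and in all 4 libraries, beta cells were below alpha cells for Gpx3, below delta cells for Gpx1 and Gpx3, and below macrophages for Gpx1 and Prdx1. The counts of lower members include Cat against endothelial cells, and Cat and Hmox1 against macrophages. These passed the minimum level only through the class where they are high and so had to differ. Sod1 was below alpha cells in all 4 libraries by CPM (-0.75 ± 0.07) and without hormone UMIs (-0.29 ± 0.04), but in 2 of 4 libraries by UMIs per cell (SD, n = 4 libraries each). Gpx4, Prdx1, Sod1, Sod2 and Txnrd1 had more UMIs per cell on average in beta cells than in alpha, delta or endothelial cells, Sod1 against alpha cells excepted.

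**Figure D2:**
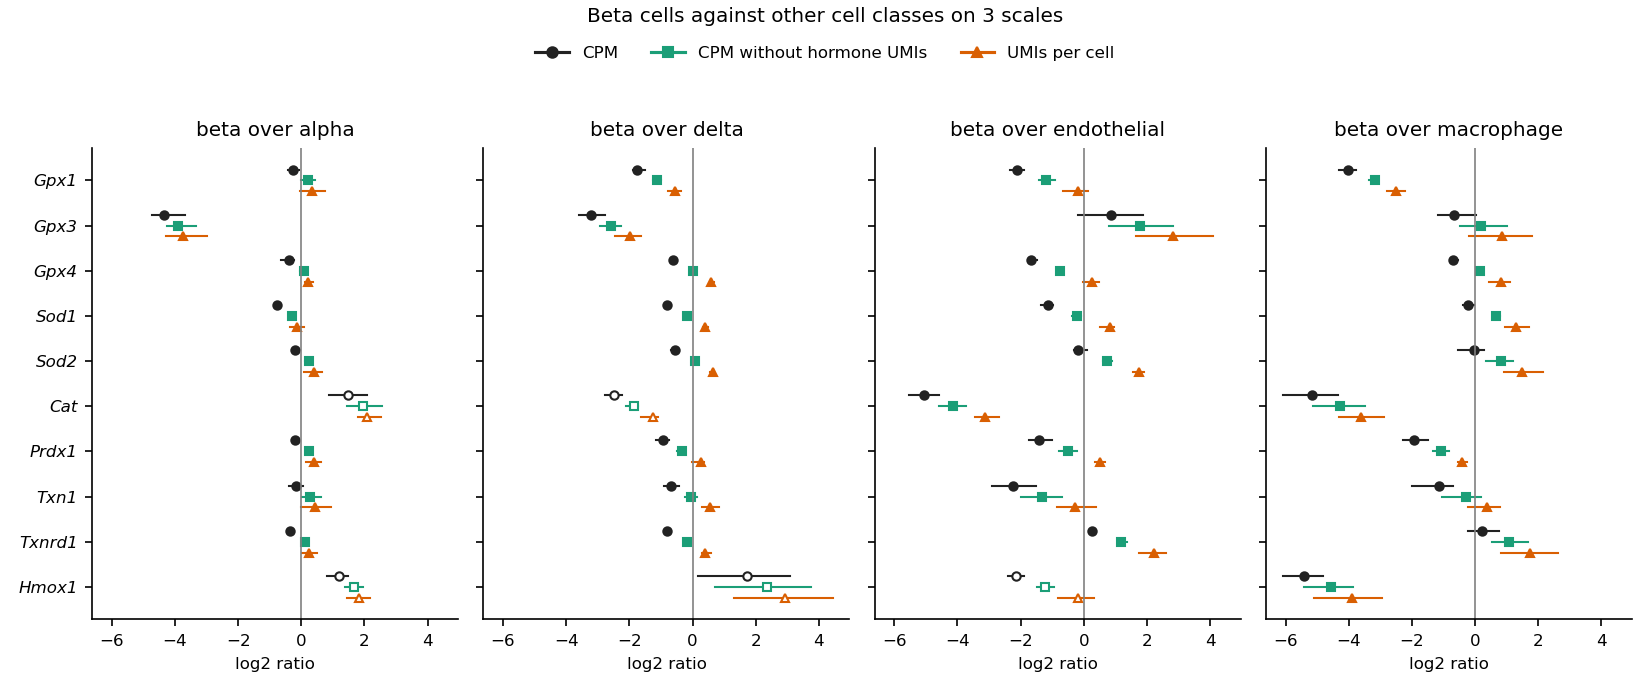
log2 ratio of beta cells over each other class for the 10 genes on 3 scales; points are means of 4 libraries, lines run from the lowest to the highest library, and open points mark genes below the minimum level. Gpx3 stays to the left of 0 against alpha cells on each scale (-4.35 by CPM, -3.89 without hormone UMIs, -3.75 by UMIs per cell), while the points of Gpx4 and Sod2 move across 0.

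With age, Txn1 was lower by CPM in beta cells of both genotypes. It had 68.2 CPM at 6 months, against 134 CPM at 1 month, in CCR2-DTR mice, and 78.7 CPM at 6 months, against 127 CPM at 1 month, in WT mice. CPM is a share of all UMIs, and UMIs per cell are given with the beta clusters below. Relative to the median gene these are log2 ratios of -0.86 (95% interval -0.93 to -0.80) and -0.79 (-0.87 to -0.72). The intervals are exact for counting error and hold nothing of the spread between animals. A gene was called here when it was past 1.5-fold relative to the median gene and its interval did not include 0. In CCR2-DTR beta cells Prdx1 was called as well, with 155 CPM at 6 months against 267 CPM at 1 month (-0.68, -0.72 to -0.63), and so was Gpx3, with 48.2 CPM against 93.4 CPM (-0.85, -0.93 to -0.77). The Gpx3 call was lost with every cell weighing the same (-0.43) and with doublets kept (-0.58). In WT beta cells Prdx1 (-0.37) and Gpx3 (-0.39) had the same sign and were not called. Called members thus numbered 3 of 8 in CCR2-DTR beta cells, all lower at 6 months, where 5.02% of all genes were called, and 1 of 8 in WT beta cells, where 3.24% were. The difference between the genotypes in the change with age has no test.

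Txn1 and Prdx1, a thioredoxin and an enzyme it supplies with electrons, both had lower CPM at 6 months in beta cells of each genotype, with Prdx1 called in CCR2-DTR mice only. Their 300-base promoter windows are given for that reason, from RefSeq on GRCm38.p6, with capitals for the motif TGACNNNGC, the core of the antioxidant response element that NRF2 binds.
Prdx1: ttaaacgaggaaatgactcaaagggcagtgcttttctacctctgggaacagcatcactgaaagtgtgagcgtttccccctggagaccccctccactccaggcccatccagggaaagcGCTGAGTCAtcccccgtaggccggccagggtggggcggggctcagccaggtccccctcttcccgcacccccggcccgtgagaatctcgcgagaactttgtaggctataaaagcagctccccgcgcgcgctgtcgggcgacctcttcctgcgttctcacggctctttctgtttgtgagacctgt
Txn1: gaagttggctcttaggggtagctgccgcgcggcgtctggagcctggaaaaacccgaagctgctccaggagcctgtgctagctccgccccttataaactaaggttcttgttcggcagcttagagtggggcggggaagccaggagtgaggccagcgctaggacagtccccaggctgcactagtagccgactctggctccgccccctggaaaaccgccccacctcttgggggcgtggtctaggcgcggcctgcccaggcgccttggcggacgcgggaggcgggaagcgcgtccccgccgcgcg
The Prdx1 window is chr4:116685349-116685648 on the plus strand and held 1 match, on the other strand, starting 133 bases before the transcription start. The Txn1 window is chr4:57956362-57956661 on the minus strand and held none. Over 27025 genes with an entry, 3781 (13.99%) had a match on either strand, and of the 9 members with an entry 3 had one, Prdx1, Sod1 and Txnrd1. A match is a string of letters and not a site.

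Alpha cells had no member called with age, of 8, in either genotype, where 3.44% of all genes were called in CCR2-DTR and 2.01% in WT cells. Prdx1 was nearest, with 187 CPM at 6 months against 289 CPM at 1 month in CCR2-DTR alpha cells (-0.56, -0.62 to -0.50). In delta cells 0 of 8 members were called in CCR2-DTR mice (5.63% of all genes) and 1 of 8 in WT mice (4.59%), which was Gpx3, with 451 CPM at 6 months against 650.2 CPM at 1 month (-0.62, -0.71 to -0.54). That call was lost without centring on the median gene, at -0.53, and with classes from marker scores, at -0.54. Txn1 in delta cells had -0.56 in CCR2-DTR mice and -0.41 in WT mice and was not called. In endothelial cells Txn1 had the other sign, 0.45 (0.33 to 0.56) in CCR2-DTR mice and 0.44 (0.32 to 0.56) in WT mice, and was not called.

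Gpx3 was the member called with age in endothelial cells, 1 of 9 in CCR2-DTR mice (9.97% of all genes) and 1 of 9 in WT mice (8.12%). It had 15.7 CPM at 6 months against 81.3 CPM at 1 month in CCR2-DTR mice, and 14.4 CPM against 73.3 CPM in WT mice. Gcg in the same cells had 2168 CPM at 6 months against 11066 CPM at 1 month in CCR2-DTR mice, and 2044 CPM against 8786 CPM in WT mice. Both genes were lower at 6 months by a similar factor, and the part of alpha-cell RNA in the Gpx3 values was not tested. With doublets kept the CCR2-DTR value was -0.32, in place of -2.35, and the call was lost, while the WT value was -1.18, in place of -2.39.

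Macrophages had 1 of 10 members called with age in CCR2-DTR mice (21.3% of all genes) and 3 of 10 in WT mice (16.1%). Gpx3 was called in both, at 47.1 CPM at 6 months against 208 CPM at 1 month in CCR2-DTR mice, and 68.6 CPM against 146 CPM in WT mice, and Gcg was again lower with it, at 6454 CPM against 34008 CPM and at 9576 CPM against 17078 CPM. The CCR2-DTR value was -2.13, and at clustering resolution 2 it was -0.21 and not called. The WT value turned positive, at 0.057, with doublets kept and at 0.33 with classes from marker scores, against -1.10 here. Sod2 had 63.2 CPM at 6 months against 114 CPM at 1 month in WT macrophages (-0.86, -1.39 to -0.36), from 47 and 111 UMIs, and was not called with every cell weighing the same (-0.57). Txnrd1 had 32.3 CPM against 53.4 CPM (-0.74, -1.499 to -0.01), and this call was lost under 7 alternatives. Summed markers of other cell types differed between these WT libraries too, with 71.2 CPM at 6 months against 7572 CPM at 1 month for acinar, 50426 CPM against 121342 CPM for beta, 10.8 CPM against 155 CPM for mesenchymal and 336 CPM against 74.9 CPM for dendritic markers, and their part in these calls was not tested.

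**Figure D3:**
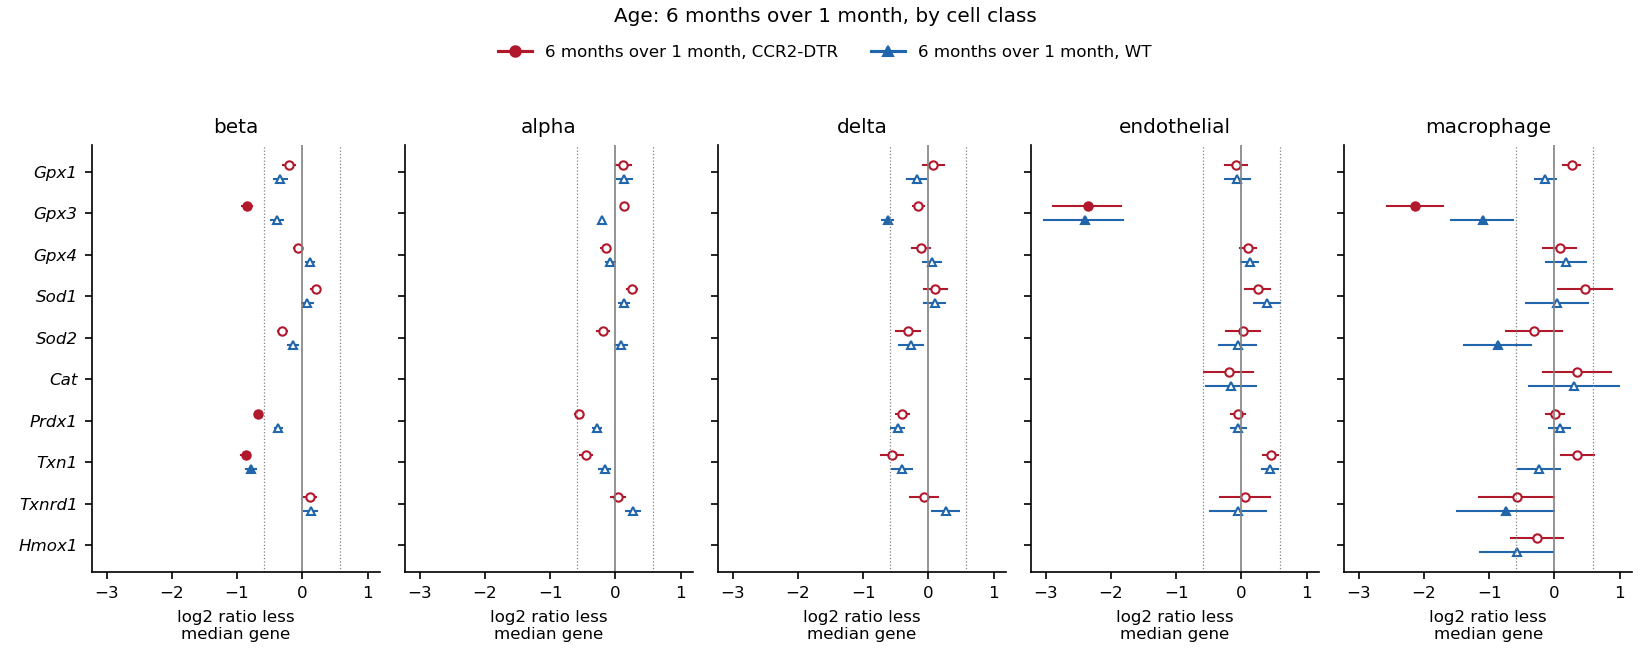
log2 ratio of 6 months over 1 month less that of the median gene, for members past the minimum level in each class; lines are exact 95% intervals for counting error, filled points were called and dotted lines mark 1.5-fold. Txn1 lies to the left in beta cells of both genotypes (-0.86 and -0.79) and to the right in endothelial cells (0.45 and 0.44).

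Between genotypes no member was called in beta cells. Of 8 members 0 passed at 6 months, where 0.936% of all genes did, and 0 at 1 month, where 0.927% did. The largest value was Gpx3 at 1 month, with 93.4 CPM in CCR2-DTR and 64.3 CPM in WT beta cells (0.34, 0.28 to 0.40), and Gcg in the same cells had 3105 CPM in CCR2-DTR and 1472 CPM in WT mice. The median gene itself was 0.20 higher in CCR2-DTR beta cells at 1 month, and changes are given relative to it. At 6 months the 8 values in beta cells lay between -0.18 (Txn1) and 0.00 (Sod2). Alpha cells had 0 of 8 called at 6 months (0.684% of all genes) and 0 of 8 at 1 month (0.913%). Delta cells had 0 of 8 at 6 months (1.19%) and 0 of 8 at 1 month (1.45%), and endothelial cells 0 of 8 at 6 months (4.37%) and 0 of 9 at 1 month (3.22%).

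In macrophages, the myeloid class, 1 of 10 members was called between genotypes at 6 months (7.82% of all genes) and 0 of 10 at 1 month (6.78%). Txn1 was higher in CCR2-DTR macrophages at 6 months, with 272 CPM against 176 CPM in WT (0.60, 0.30 to 0.90), from 341 and 131 UMIs. Markers of other myeloid cells differed between the same libraries: the 5 neutrophil markers summed to 488 CPM in CCR2-DTR and 52.4 CPM in WT macrophages, with S100a8 at 159.7 CPM and S100a9 at 244 CPM in CCR2-DTR and both at 0 in WT, and the 6 dendritic markers to 228 CPM in CCR2-DTR and 336 CPM in WT. Their part in the Txn1 value was not tested. It stayed above 0 and dropped below 1.5-fold with a 10% mitochondrial limit (0.54), a minimum of 2000 UMIs (0.58), classes from marker scores (0.52) and clustering at resolution 2 (0.54). Hmox1 had 83.8 CPM in CCR2-DTR and 57.8 CPM in WT macrophages at 6 months, and 101 CPM in CCR2-DTR and 85.2 CPM in WT macrophages at 1 month, with intervals that include 0 (-0.02 to 1.05 and -0.24 to 0.61). Gpx1 had 893 CPM in CCR2-DTR and 780 CPM in WT macrophages at 6 months (0.17), and 750 CPM in CCR2-DTR and 851 CPM in WT macrophages at 1 month (-0.25).

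**Figure D4:**
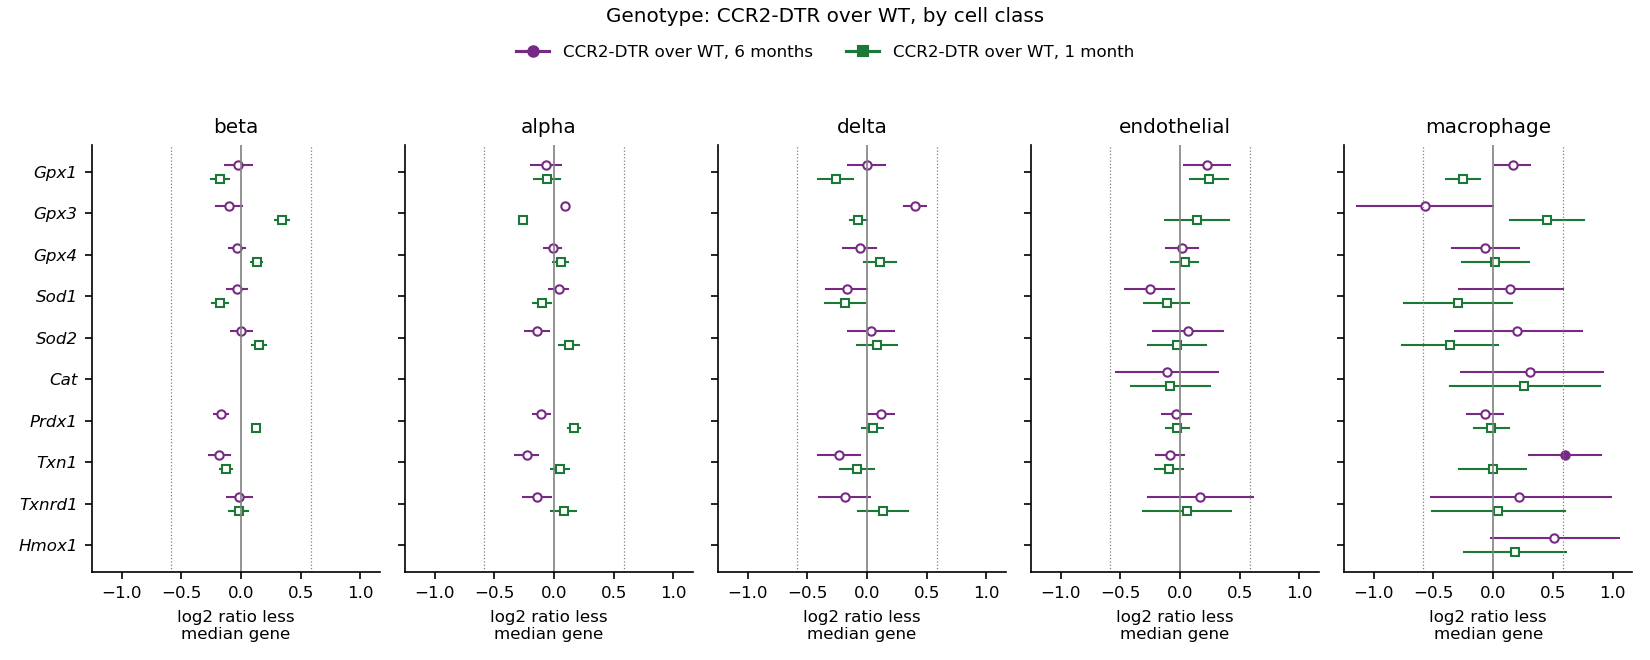
log2 ratio of CCR2-DTR over WT less that of the median gene, for members past the minimum level, at 6 months and 1 month; lines are exact 95% intervals for counting error, filled points were called and dotted lines mark 1.5-fold. Txn1 in macrophages at 6 months (0.60) is the one filled point.

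Beta cells were not uniform. The members and nearly all listed genes had been kept out of the clustering, and the 4 beta clusters still differed in Gpx3. In the 2 largest, clusters 0 and 2, it had 13.3 and 21.8 CPM in CCR2-DTR mice at 6 months, 27.3 and 38.6 CPM in CCR2-DTR mice at 1 month, 11.8 and 28.0 CPM in WT mice at 6 months, and 22.4 and 29.5 CPM in WT mice at 1 month. Cluster 8, which also had Cd79a and Defb1 among its leading genes, had 192 and 218 CPM in CCR2-DTR mice at 6 months and 1 month, and 146 and 230.5 CPM in WT mice. In cluster 8 Gcg was at 850.5 to 2566 CPM, against 654 to 2169 CPM in clusters 0 and 2. Sst, the somatostatin gene of delta cells, was also higher in cluster 8 than in clusters 0 and 2, where it had 62.8 to 275 CPM. In cluster 8 it had 2914 and 580.2 CPM in CCR2-DTR mice at 6 months and 1 month, and 3483 and 350.5 CPM in WT mice. Within cluster 8 Sst was thus higher at 6 months in both genotypes, while Gpx3 was lower at 6 months. Delta cells themselves had 451 to 650.2 CPM of Gpx3 and 98171 to 122410 CPM of Sst. The part of their RNA in the cluster values was not tested. Cluster 10, led by Ppy, Pyy and Sst, had 199 to 369 CPM of Gpx3 and 5227 to 15750 CPM of Gcg, and its median doublet score was 0.11, against 0.045 in cluster 0. Without clusters 8 and 10 the change of Gpx3 with age in CCR2-DTR beta cells was -1.17.

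By CPM, Txn1 was lower at 6 months in each of these 4 clusters and in both genotypes. In cluster 0 it had 63.0 CPM at 6 months against 112 CPM at 1 month in CCR2-DTR mice, and 71.4 CPM against 107.5 CPM in WT mice. In cluster 2 the values were 62.3 CPM against 131 CPM in CCR2-DTR mice, and 69.9 CPM against 132 CPM in WT mice. Prdx1 in cluster 0 had 148 CPM at 6 months against 228 CPM at 1 month in CCR2-DTR mice, and 167 CPM against 185 CPM in WT mice. The cycling cluster, which held cells of several classes, was above these 4 clusters for both genes, at 234 to 246 CPM of Txn1 and 333.5 to 417 CPM of Prdx1 in the 1-month libraries, and it supplied 0.221% and 0.269% of beta cells at 6 months (CCR2-DTR and WT) and 5.96% and 5.37% at 1 month. With those cells left out the Txn1 ratios were -0.80 in CCR2-DTR and -0.73 in WT beta cells. Depth moved with age as well: the median beta cell had 27411 UMIs at 6 months against 13997 at 1 month in CCR2-DTR mice, and 28636 against 17262 in WT mice, and its part in the ratios was not tested.

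**Figure D5:**
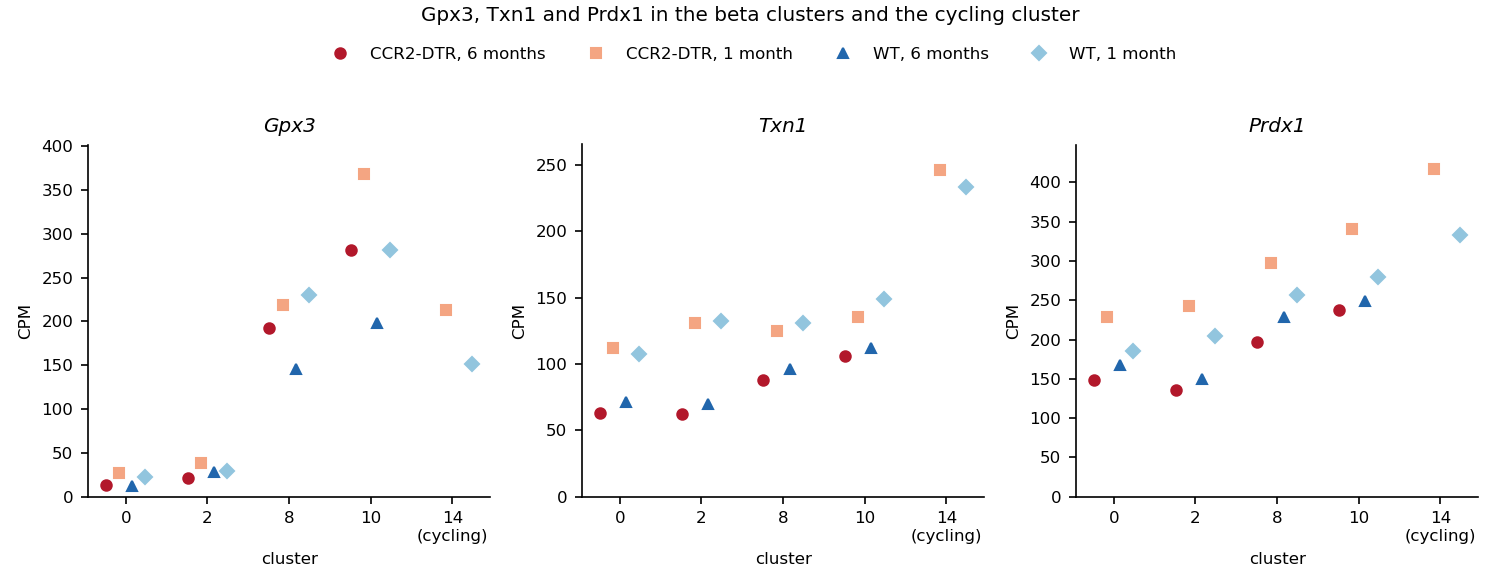
Gpx3, Txn1 and Prdx1 in CPM by library in the 4 beta clusters and in the cycling cluster, which had at least 50 cells in the 1-month libraries only; points are libraries. Gpx3 is above 145 CPM in clusters 8 and 10 and below 39 CPM in clusters 0 and 2, and Txn1 at 6 months is below Txn1 at 1 month in each beta cluster.

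Of 112 other genes of these pathways, chosen with earlier results of the data known, 52 were past the minimum level in WT beta cells with age. Of these, 5 were called higher at 6 months and 2 lower, 13.5% against 3.24% of all genes, and in CCR2-DTR beta cells 4 of 53 were called higher and 2 lower, 11.3% against 5.02% of all genes. Called higher in both genotypes were the metallothionein genes, whose small proteins bind metals and scavenge radicals. Mt1 in beta cells had 686 CPM at 6 months against 176 CPM at 1 month in CCR2-DTR mice, and 582.02 CPM against 273 CPM in WT mice. Mt2 had 124 CPM against 30.5 CPM in CCR2-DTR mice, and 113 CPM against 43.4 CPM in WT mice. Both were also called in alpha cells of both genotypes, in the direction opposite to Txn1. Mt1 was called higher at 6 months in the other CCR2-DTR classes too: delta (1.31), endothelial (1.84) and macrophage cells (1.14). In those classes of WT mice it was not called. Gstm1, a glutathione transferase, had 45.8 CPM at 6 months against 24.98 CPM at 1 month in CCR2-DTR beta cells, and 36.4 CPM against 19.7 CPM in WT beta cells. The other genes called higher at 6 months were Nfe2l1 in CCR2-DTR beta cells (0.67), and Txnip (1.24) and the iron exporter gene Slc40a1 (0.71) in WT beta cells. Those called lower were Selenok (-0.63) and Taldo1 (-0.68) in CCR2-DTR beta cells, and Gpx2 (-1.18) and Qsox1 (-0.60) in WT beta cells. Between genotypes, the 2 listed genes called in beta cells were Mt1 and Mt2, both at 1 month. Mt1 had 176 CPM in CCR2-DTR against 273 CPM in WT, and Mt2 30.5 CPM against 43.4 CPM. At 1 month Mt1 was also called lower in CCR2-DTR endothelial cells (-0.77) and macrophages (-1.02). At 6 months it was called higher in CCR2-DTR delta (0.79) and endothelial cells (0.98). Mt1 in CCR2-DTR endothelial cells had 113 CPM at 6 months and 32.2 CPM at 1 month. Ins2, an insulin gene of beta cells, had 53038 and 47775 CPM in the same cells. In CCR2-DTR beta cells Ins2 had 332744 and 286943 CPM. In WT endothelial cells it had 29651 CPM at 6 months and 44020 CPM at 1 month. The part of beta-cell RNA in the Mt1 values of other classes was not tested.

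Other listed genes also differed between beta cells and the other classes. Prdx4, the peroxiredoxin of the endoplasmic reticulum, was the lowest listed peroxiredoxin or thioredoxin gene in beta cells against alpha (-2.14), delta (-2.46) and endothelial cells (-2.67), with 9.02 and 27.4 CPM in CCR2-DTR beta cells at 6 months and 1 month and 11.6 and 21.8 CPM in WT beta cells. Ero1lb, which passes electrons from folding proteins to oxygen in the endoplasmic reticulum, was the highest of the oxidant sources in beta cells against all 4 classes, with log2 ratios of 2.17 (macrophage) to 3.44 (delta). Nfe2l2, the gene of NRF2, had 15.5 to 19.2 CPM in beta cells, 126 to 191 CPM in endothelial cells and 151 to 308 CPM in macrophages. Its beta over endothelial ratio was -3.17 and its beta over macrophage ratio -3.67, and without hormone UMIs these were -2.25 and -2.81. Cybb, the catalytic subunit of the phagocyte NADPH oxidase, had 442 to 811 CPM in macrophages and at most 0.110 CPM in beta cells. Of 9 oxidant sources past the minimum level against macrophages, 6 were at least 2-fold lower in beta cells in all 4 libraries.

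Over the 20 profiles of 5 classes and 4 libraries, the genes whose pattern was most like each member were found among 6382 candidates by Pearson r on the log2(CPM + 10) scale. Gpx3 was most like Gria2 (r = 0.99), an AMPA receptor subunit gene with 28.0 CPM on average in beta and 559 CPM in alpha cells, followed by Dbpht2 (0.99) and Etv1 (0.98). Hmox1 was most like Lgals1 (0.99), Irf8 (0.99) and Gpsm3 (0.99). Irf8 is a transcription factor gene of myeloid cells, with 340.3 CPM in macrophages and 0.219 CPM in beta cells. For Gpx1 these genes were Grb2 (0.98), Capza2 (0.98) and Tm6sf1 (0.98), and for Gpx4 they were Tprgl (0.99), Nr3c1 (0.98) and Gpr146 (0.98). Sod1 was nearest to Zkscan3 (0.95), Mtf2 (0.95) and Ago3 (0.95), and Sod2 to Mmadhc (0.95), Isca2 (0.93) and Timm13 (0.91). Cat had Myadm (0.99), Elmo1 (0.99) and Rap1a (0.99) as its nearest genes. The nearest to Prdx1 were Tuba1b (0.99), Ywhah (0.98) and Clic1 (0.98), those to Txn1 Scamp3 (0.96), Smpdl3a (0.96) and Mapre1 (0.96), and those to Txnrd1 Gm45486 (0.96), Gm11837 (0.96) and Pigp (0.95). These r values follow the differences between classes and are given without a test.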

How the data were processed

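The deposited matrices hold whole-number UMI counts per gene and barcode, made by the authors with Cell Ranger 5.0.1 on mm10, per the submitters' processing notes. The deposited barcode and gene tables (unit: other) only name rows and columns. The sources used here name neither the annotation release nor whether introns were counted. Totals were 60315217 to 121292320 UMIs a library. Coordinates are from GENCODE vM21 on GRCm38, and promoter sequences from RefSeq.

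A barcode was kept with 1000 or more UMIs, 500 or more genes and a mitochondrial share of UMIs up to 15%, and Scrublet scores over 0.25 were removed as doublets (87 to 363 a library). Cells were clustered with scanpy 1.11.5 and leidenalg 0.10.2 (2000 variable genes, 30 components, 15 neighbours, resolution 1) without the 10 members and the listed genes, except Ero1l and Ero1lb, and named by markers. Clusters with leading genes of another class, or with few UMIs and no marker among them, stayed unnamed. Cells of the cycling cluster took the class of their highest marker score.

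Counts were summed per class and library and divided by the class total (CPM). Between 2 libraries the log2 ratio was taken less that of the median gene, over genes with a mean of at least 20 CPM and 20 UMIs, with exact conditional 95% Poisson intervals, which cover counting error only. The ratio and interval were run on simulated Poisson counts with no spread between animals or libraries. That run can speak for counting error only. With 1 library a group no p-value was computed. Named are all 10 members, the 3 most alike genes of each, extremes of the lists and genes a result turns on; other listed genes that were called, and Gstp1, were chosen after their values were seen. The members and lists were chosen with earlier results of these data known. Alternatives were other totals, filters, floors, classes, clusterings and doublet handling.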

Additional observations from a re-analysis of the deposited data

How the results depend on the processing

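Class counts kept within 1.5 times the value given in 109 of 120 cases. With hormone UMIs left out of the totals, members lower in beta cells were 2 against alpha, 5 against delta and 4 against macrophage cells, and members at least 2-fold lower were 1 against delta and 1 against endothelial cells. By UMIs per cell, members lower were 1 against alpha, 2 against delta, 1 against endothelial and 4 against macrophage cells, those at least 2-fold lower 1 against delta and 1 against endothelial cells, and Gpx4 (0.26) and Prdx1 (0.51) were higher in beta than in endothelial cells on average. Leaving out 1 library in turn gave 7 to 7 members lower against alpha, 8 to 8 against delta, 6 to 7 against endothelial and 7 to 8 against macrophage cells, and at least 2-fold lower 1 to 1, 2 to 2, 5 to 6 and 4 to 5. For conditions this would leave no comparison, and that alternative was not run.

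Counts of members called between libraries kept within 1.5 times in 234 of 260 cases. With no minimum CPM they were 5 (CCR2-DTR) and 2 (WT) for age in beta cells, 1 and 1 in alpha cells and 2 in WT delta cells. With a minimum of 50 CPM they were 0 and 0 for age in endothelial cells. With doublets kept they were 1 for age in CCR2-DTR alpha cells, 0 for age in CCR2-DTR and 1 for genotype at 1 month in endothelial cells, and 2 each for age in CCR2-DTR and for genotype at 6 months in macrophages. At resolution 2 they were 1 for age in CCR2-DTR alpha cells and 0 in CCR2-DTR macrophages. Without centring they were 1 in CCR2-DTR alpha cells, 0 in WT delta cells and 2 in CCR2-DTR macrophages for age. With classes from marker scores they were 1 for age in CCR2-DTR delta cells, 1 and 1 for genotype in endothelial cells and 1 for genotype at 1 month in macrophages. With every cell weighing the same they were 1 for genotype at 1 month in endothelial cells, and 2 for genotype at 1 month and 3 for age in CCR2-DTR macrophages. A limit of 10% mitochondrial UMIs gave 0 for genotype at 6 months in macrophages, and a minimum of 2000 UMIs gave 2 for age in CCR2-DTR macrophages. Gpx3 in WT macrophages with age reversed, to 0.057 with doublets kept and to 0.33 with classes from marker scores. The cause of these changes was not tested. Txn1 in beta cells with age stayed called under each alternative, from -0.99 to -0.78 in CCR2-DTR and from -1.01 to -0.69 in WT mice. UMIs per cell was not among the alternatives for changes with age.

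No paired analysis was possible because each group has 1 library and its replicate number was given in accession order. Alternatives chosen after seeing the data were counting low-UMI unnamed clusters as beta, leaving out the cycling cluster, and leaving out beta clusters 8 and 10. Depth limits the macrophage values, where a member rested on 24 to 1118 UMIs, and the values of Cat in alpha cells (4 to 26 UMIs) and Hmox1 in delta cells (1 to 6 UMIs).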

Other observations

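Gstp1, a glutathione transferase gene, was highest in the WT library at 6 months in each of the 5 classes. It had 12.7 CPM in CCR2-DTR and 25.9 CPM in WT beta cells at 6 months, 21.0 CPM in CCR2-DTR and 36.8 CPM in WT alpha cells, 28.0 CPM in CCR2-DTR and 50.8 CPM in WT endothelial cells, and 13.6 CPM in CCR2-DTR and 35.0 CPM in WT macrophages. Delta cells had 40.3 CPM in CCR2-DTR and 55.2 CPM in WT mice. Gstp1 has near copies in its gene family, so the value is uncertain where reads are shared.

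The unnamed cluster 6, of 1938 cells with low UMI counts and no marker among its leading genes, scored highest for beta markers and had 38.5 to 88.7 CPM of Gpx3 and 22.5 to 75.6 CPM of Txn1 in the 3 libraries with at least 50 of its cells. Counting such clusters as beta gave log2 ratios of Txn1 with age of -0.94 in CCR2-DTR and -0.96 in WT mice.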
